A study of Canis lupus familiaris with 29 samples.

Results

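Among the canine pheochromocytomas and paragangliomas (PPGLs) of group 2, tumors were chosen by their level of CYP11A1, the enzyme that opens steroid synthesis, and the 6 tumors with the highest level were compared with the 6 with the lowest. All 12 tumors of PPGL group 2 were used, out of 29 samples in the series. The series holds RNA sequencing counts from 19 PPGLs of dogs, 7 in group 1 and 12 in group 2, and from 10 normal adrenal medullas (NAMs) of healthy dogs. The PPGL groups are those the authors assigned from the expression of these samples, and every tumor is tissue labelled as arising from chromaffin cells. Tumors are named here by their label number within group 2. The labels give no library batch, and the numbers count different dogs.

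The adrenal gland has an outer cortex that makes steroid hormones and an inner medulla of chromaffin cells that make catecholamines. In cortical cells the protein STAR brings cholesterol into mitochondria, where the product of CYP11A1 cleaves its side chain, and enzymes such as those of HSD3B2, CYP17A1, CYP21A2 and CYP11B2 finish the steroids. The nuclear receptor NR5A1 and the corticotropin receptor MC2R keep this program running. Chromaffin cells use TH, DDC and DBH for catecholamine synthesis and store the product in granules with chromogranins.

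CYP11A1, on chromosome 30 from 37473901 to 37487507 of CanFam3.1, selected the sets and is therefore described without a test. In CPM, the count scaled to a common library total, it stood at 4390.2 in tumor 10, 1339.6 in tumor 2, 1174 in tumor 1, 895 in tumor 12, 769 in tumor 8 and 521 in tumor 4, the CYP11A1-high set. The CYP11A1-low set held tumor 5 with 399.9 CPM, tumor 9 with 350.1, tumor 6 with 292, tumor 3 with 155, tumor 11 with 88.8 and tumor 7 with 13.5. The last tumor inside the high set and the first outside it, tumors 4 and 5, were thus neighbours on a continuous scale. The same gene ranged from 0 to 31.9 CPM in group 1 and from 2582 to 9526 CPM in NAMs, so that tumor 7 lay within the range of group 1 and tumor 10 within that of NAMs.

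Totals were 19272020 to 24569667 counts in the high set and 18208718 to 24261652 in the low set. Mean totals were 22113433.2 ± 2018663.9 and 21523080 ± 2104393.5 (SD, n = 6 each; two-sided exact permutation test, p = 0.626). Genes with a count averaged 17514.8 ± 598.6 and 17475.3 ± 540.6 (p = 0.905, same exact test), where the smallest p this design allows is 0.00216. The floor taken as 3 counts lay between 0.122 and 0.165 CPM in these libraries and covers counting error only.

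Tumors 11 and 7 of the low set stood apart, each in a different measure. From here on, levels are CPM after trimmed mean of M values (TMM) normalization. Tumor 11 scored 133.6 on the first principal component of the genes that passed the low-count filter, which held 24.9% of the variance, and the next highest tumor scored 61.3. It had 8084 CPM of COL1A1, a fibrillar collagen of fibroblasts, against 56.9 to 2126 CPM in the other tumors, and 108.3 CPM of the macrophage gene CD68 against 3.39 to 30.2 CPM. On the same component tumor 7 scored 13.4, inside the range of the other tumors. Tumor 7 had 32.1 CPM of TH, the rate-limiting enzyme of catecholamine synthesis, against 892 to 6484 CPM in the other tumors. Values without these tumors are given below for the lists whose medians they moved most.

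Several cortical genes, though not the whole of the cortical lists, fell with CYP11A1 through the tumors. CYP17A1, whose enzyme directs steroids towards cortisol and androgens, lay at 1112 to 11730 CPM in the high set (median 3158) and at 10.2 to 1189 CPM in the low set (median 614). The sets overlapped, since tumor 5 was above tumor 4. CYP21A2, the 21-hydroxylase, lay at 543 to 4576 CPM in the high set (median 865) and at 44.6 to 383 CPM in the low set (median 169), with no overlap. STAR lay at 655 to 3881 CPM in the high set (median 1150) and at 82.6 to 844 CPM in the low set (median 395), with overlap. These genes belong to the program of the gene used for the choice, so they are described without p-values. In bulk tissue, fewer cortical cells and less cortical RNA per cell cannot be told apart.

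Their log2 fold changes (FCs), high minus low, were 2.75 (SE 0.86) for CYP17A1, 3.06 (SE 0.71) for CYP21A2, 2.81 (SE 0.78) for CYP11B2, 2.73 (SE 0.85) for HSD3B2 and 1.83 (SE 0.61) for STAR. Without tumor 10 they were 2.12, 2.38, 2.12, 2.01 and 1.25. The reading of CYP11B2 is uncertain, because reads of close members of the cytochrome P450 11B family may be split. FDX1, which passes electrons to the mitochondrial steroid enzymes, lay at 101.7 to 822 CPM in the high set (median 251) and at 16.4 to 73.8 CPM in the low set (median 54.2), with no overlap (log2 FC 2.58, SE 0.51). SCARB1, the receptor that takes up cholesterol from high-density lipoprotein, lay at 300.4 to 2473 CPM (median 538) against 37.1 to 198.6 CPM (median 138.5), also with no overlap (log2 FC 2.67, SE 0.57). Among the regulators, NR5A1 had a log2 FC of 2.57 (SE 0.69), MC2R of 2.37 (SE 0.75), its accessory protein MRAP of 3.11 (SE 0.75), the repressor NR0B1 of 2.45 (SE 0.78) and the inhibin subunit INHA of 2.41 (SE 0.60). Without tumor 10, NR5A1 had 2.09, MC2R 1.86, MRAP 2.51 and NR0B1 2.08. The lowest NR0B1 value in the low set, 0.0479 CPM, is under the floor of 3 counts, which makes the size of its fold uncertain. CYP11B1 was not found by name.

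**Figure D1:**
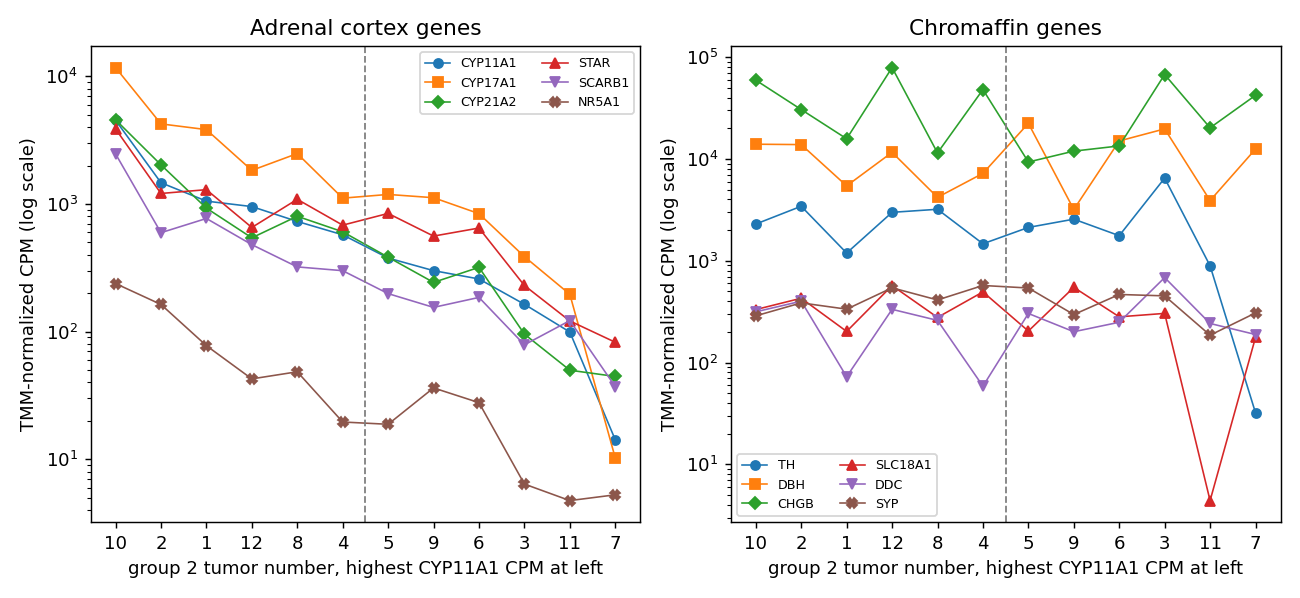
TMM-normalized CPM on a log scale of 6 adrenal cortex genes (left) and 6 chromaffin genes (right) in each of the 12 group 2 tumors, ordered from the highest to the lowest CYP11A1 CPM. The dashed line divides the 6 CYP11A1-high from the 6 CYP11A1-low tumors. The cortex genes shown descend with CYP11A1, not at every step, from tumor 10 to tumor 7, while the chromaffin genes show no such order; TH is lowest in tumor 7 at 32.1 CPM and SLC18A1 in tumor 11 at 4.41 CPM.

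Over the whole list of steroidogenesis genes, 14 of the 16 found besides CYP11A1 passed the low-count filter; 10 were higher and 4 lower in the high set, and the median log2 FC was 1.35 (0.93 without tumor 10), against -0.03 over all genes tested. The 4 lower genes included HSD11B1, which regenerates cortisol, at 56.4 CPM in tumor 11 and 10.1 CPM or less in the high set. Of the 27 cortex regulators found, 25 passed, 15 higher and 10 lower, with a median log2 FC of 0.54, or 0.20 without tumor 4 and 0.27 between the 4 highest and 4 lowest tumors. AXIN2 and GLI1, targets of Wnt and hedgehog signaling, were on the lower side with log2 FCs of -1.03 (SE 0.42) and -1.33 (SE 0.60). FATE1 had no count in any of these tumors.

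Ratios of counts to those of CYP11A1, not adjusted for gene length, differed in spread. Outside tumor 7 they lay between 1.92 and 3.73 for CYP17A1, 0.502 and 1.38 for CYP21A2, 0.686 and 2.51 for STAR, and 0.351 and 2.19 for HSD3B2. In tumor 7 they were 0.721, 3.13, 5.81 and 3. STAR also had a median of 122 CPM in group 1, where the median of CYP17A1 was 1.88 CPM and that of MC2R was 0. The 43 genes of the steroidogenesis and cortex regulator lists besides CYP11A1 took 0.537% to 3.47% of counts in the high set (median 1.09%), 0.172% to 0.551% in the low set (median 0.375%), 0.1% to 0.248% in group 1 and 1.7% to 6.31% in NAMs. These shares overlapped between the 2 sets, between the low set and group 1, and between the high set and NAMs.

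Across all genes, the comparison of the sets asks which other transcripts run along with CYP11A1. The quasi-likelihood (QL) F test of edgeR was run on 14314 genes, and 0 of them passed at an adjusted p under 0.05 (0%), the smallest being 0.421. Unadjusted p-values were below 0.05 for 848 genes (5.92%), 370 higher and 478 lower in the high set. The DESeq2 Wald test gave 57 genes at the same adjusted threshold, 47 higher and 10 lower, and the exact Mann-Whitney U-test gave 0, with 471 genes at an unadjusted p below 0.05. The smallest p the exact rank test can give at this size is 0.00216, so that its count of 0 says little. In 28 genes (0.196%) every tumor of the high set lay above every tumor of the low set, and in 6 genes (0.0419%) below.

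The genes with the smallest p on the higher side outside the cortex and cholesterol lists were FNDC4, SCAMP2, MCCC1, MFSD1 and CELA1, none past the threshold by edgeR and all past it by the DESeq2 Wald test. FNDC4, a secreted fibronectin type III domain protein, lay at 17.0 to 69.0 CPM in the high set (median 28.1) and at 3.93 to 9.86 CPM in the low set (median 7.90). The sets did not overlap (log2 FC 2.23, SE 0.36, edgeR FDR-adjusted p = 0.421). SCAMP2, a membrane protein of secretory carriers, lay at 65.9 to 81.2 CPM against 39.3 to 60.9 CPM (log2 FC 0.71, SE 0.15, edgeR FDR-adjusted p = 0.735). The elastase gene CELA1 lay at 10.5 to 142.9 CPM against 1.53 to 10.3 CPM (log2 FC 3.12, SE 0.71, or 2.28 without tumor 1), again with no overlap. MCCC1, a subunit of the carboxylase that degrades leucine, and the transporter gene MFSD1 had log2 FCs of 0.86 (SE 0.19) and 0.82 (SE 0.18).

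On the lower side these were STPG1, AGMO, TNFRSF1B, PCDHB2 and TTYH2, again none past the threshold by edgeR and all but AGMO past it by the DESeq2 Wald test. STPG1 lay at 0.388 to 1.34 CPM in the high set (median 0.995) and at 1.82 to 7.59 CPM in the low set (median 4.28), with no overlap (log2 FC -2.12, SE 0.43, edgeR FDR-adjusted p = 0.735). TNFRSF1B, a receptor for tumor necrosis factor carried by leukocytes, lay at 9.51 to 16.2 CPM against 19.4 to 65.3 CPM (log2 FC -1.24, SE 0.30). Its highest value was in tumor 11, the library richest in macrophage transcripts, whose part in this difference was not tested beyond leaving it out. Without single tumors in turn, the log2 FC of TNFRSF1B lay between -1.35 and -0.90. AGMO, the alkylglycerol monooxygenase, and the protocadherin gene PCDHB2 had log2 FCs of -2.43 (SE 0.59; -1.88 without tumor 11) and -3.12 (SE 0.77; -2.05 without tumor 7), and the chloride channel family member TTYH2 one of -1.97 (SE 0.49).

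When log2 CYP11A1 CPM entered the fit as a continuous measure over the same 12 tumors, 67 of 14314 genes had a slope with an edgeR FDR-adjusted p below 0.05. Of these, 65 rose with CYP11A1 (0.454%) and 2 fell (0.014%). The DESeq2 Wald test gave 152 rising and 47 falling genes for the same slope, all of the 67 among them. This fit uses the distance between tumors within each set, which the division into 6 and 6 does not. The count depended most on tumor 10: without it 18 genes were called, all among the 67. Without tumor 7, the farthest from the others on the log2 scale of CYP11A1, 60 genes were called, 42 of them among the 67, and without each of the other tumors in turn 53 to 71.

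A slope of 1 means that a gene doubles when CYP11A1 doubles. Slopes, on the log2 scale, were 1.19 (SE 0.08) for CYP17A1, 0.98 (SE 0.09) for CYP11B2, 0.91 (SE 0.11) for HSD3B2, 0.85 (SE 0.09) for CYP21A2 and 0.68 (SE 0.07) for STAR, and the median over all genes tested was -0.0043. MC2R, NR5A1 and SCARB1 had slopes of 0.82 (SE 0.11), 0.73 (SE 0.10) and 0.71 (SE 0.07). Among the 65 rising genes were 6 of 14 steroidogenesis genes, 8 of 25 cortex regulators and 3 of 35 cholesterol genes. The first 2 lists belong to the program of the gene that sets the scale, so their counts are a description and not a test. SOAT1, which makes cholesterol esters for storage, was among the cholesterol genes (0.34, SE 0.07).

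Outside these lists 50 of the 67 genes remained, and those with a symbol and the smallest p, singled out after their values were seen, are given here. Without tumor 10, 11 of the 50 stayed past the threshold: AIF1L, MCCD1, LMAN1L, SEMA3B, ACSF2, HAO2, GSTA2, DPP4, APOB, PCDHB2 and FKBP10. AIF1L, an actin-binding protein gene, lay at 24.8 to 202.8 CPM in the high set (median 43.3) and at 1.01 to 18.3 CPM in the low set, with no overlap (slope 0.91, SE 0.07, edgeR FDR-adjusted p = 2.13e-05). MCCD1 lay at 2.47 to 21.7 CPM in the high set and at 0.0479 to 1.70 CPM in the low set (slope 1.14, SE 0.09, edgeR FDR-adjusted p = 6.82e-05). Its lowest value, in tumor 7, is under the floor of 3 counts, and without that tumor the slope was 1.19 (SE 0.12). LMAN1L, related to a lectin of the secretory pathway, lay at 68.2 to 667 CPM against 4.31 to 76.6 CPM, with overlap (slope 0.93, SE 0.09, edgeR FDR-adjusted p = 0.000169). In each of these genes tumor 10 was highest and tumor 7 lowest.

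SEMA3B, a secreted semaphorin, and ACSF2, an acyl-CoA synthetase, had slopes of 0.73 (SE 0.07) and 0.72 (SE 0.07). HAO2, a peroxisomal hydroxyacid oxidase, had a slope of 1.06 (SE 0.12), and the glutathione transferase GSTA2, which has close paralogs and is uncertain for that reason, one of 0.80 (SE 0.09). DPP4, a cell-surface dipeptidyl peptidase, had a slope of 0.66 (SE 0.09), SEL1L3 one of 0.63 (SE 0.08) and TRABD2A one of 0.80 (SE 0.10). Receptor and channel genes among the 67, also singled out afterwards, included the vasopressin receptor AVPR1A (0.63, SE 0.09), the estrogen receptor ESR1 (0.49, SE 0.08), the vitamin D receptor VDR (0.47, SE 0.08) and the potassium channel KCNK2 (0.62, SE 0.11). None of these receptor and channel genes was past the threshold without tumor 10 (edgeR FDR-adjusted p = 0.244 to 0.303). ESR1 and VDR were also not past it without tumor 7 (edgeR FDR-adjusted p = 0.0588 and 0.161). 7 of the 67 genes had no symbol.

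The 2 genes that fell were PCDHB2 and FKBP10, an endoplasmic reticulum protein that assists collagen folding. PCDHB2 lay at 0.896 to 2.404 CPM in the high set and at 2.71 to 46.2 CPM in the low set (slope -0.68, SE 0.10, edgeR FDR-adjusted p = 0.00783). FKBP10 lay at 9.45 to 29.7 CPM against 11.0 to 310 CPM (slope -0.52, SE 0.10, edgeR FDR-adjusted p = 0.0307). Both were highest in tumor 7, and without it their adjusted p-values were 0.243 and 0.379. FKBP10 was also not called without any one of 7 other tumors, with adjusted p-values of 0.0519 to 0.0722.

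NAMs, which played no part in choosing the tumors, also vary in CYP11A1, and the same slope was fitted in the 10 of them. The edgeR fit on 13168 genes called 2703 at an adjusted p under 0.05, 1344 rising (10.2%) and 1359 falling (10.3%). Other lists also moved along this slope. Of 35 catecholamine and chromaffin genes, 11 fell and 0 rose past the threshold (median slope -0.56). Of 10 Schwann and sustentacular genes, 4 fell and 0 rose (median slope -0.46). Past the threshold, 18 of 24 TCA cycle and respiratory chain genes and 12 of 13 mitochondrially encoded genes rose, and 0 fell. The cause was not tested. Of the 65 genes that rose in group 2, 64 were tested in NAMs. All 64 had a positive slope there and 43 (67.2%) were past the threshold in that direction, which is 3.22% of the 1336 genes rising in NAMs among those tested in both fits. Outside the cortex and cholesterol lists it was 28 of 47 (59.6%), and within them 15 of 17 (88.2%). Without tumor 10 it was 14 of 16 genes (87.5%), without tumor 7 it was 47 of 59 (79.7%), and without tumor 11 it was 42 of 67 (62.7%). The NAM count depended on single libraries: it was 501 without NAM 4, 978 without NAM 8 and 1694 without NAM 6. NAM slopes past the threshold were 0.94 (SE 0.20) for CYP17A1, 0.82 (SE 0.11) for AIF1L, 1.05 (SE 0.24) for MCCD1 and 1.00 (SE 0.09) for ACSF2. Among the genes not past it in NAMs were HAO2 (0.53, SE 0.52), HSD3B2 (1.08, SE 0.43) and ESR1 (0.67, SE 0.24). JAK3 and AKR1B1, singled out after their values were seen, rose in group 2 and had NAM slopes of 0.26 (SE 0.28) and 0.38 (SE 0.25). In group 2, neither was past the threshold without tumor 10 (edgeR FDR-adjusted p = 0.277 and 0.184). JAK3 was also not past it without tumor 7 (edgeR FDR-adjusted p = 0.0658). Of the 2 genes that fell, PCDHB2 had a NAM slope of -0.48 (SE 0.18) and FKBP10 one of 0.18 (SE 0.28), neither past the threshold.

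**Figure D2:**
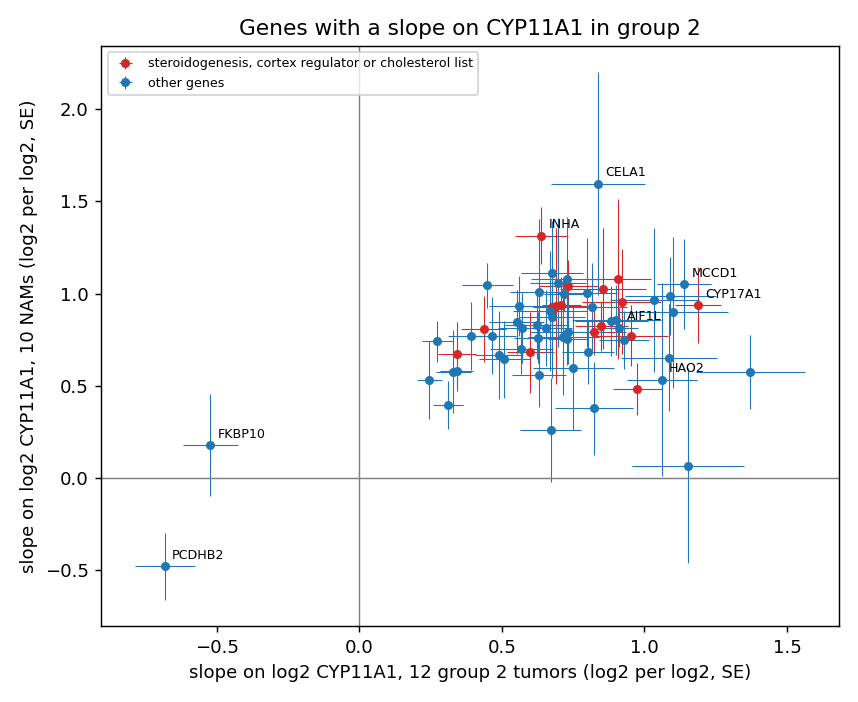
Slope of log2 expression on log2 CYP11A1 in the 12 group 2 tumors (horizontal) and in the 10 NAMs (vertical), with SE bars, for the genes past the threshold in group 2 that were tested in both. Red points are genes of the steroidogenesis, cortex regulator or cholesterol lists and blue points are the others. All 64 genes that rose in group 2 lie above 0 in NAMs; FKBP10 and PCDHB2 are the 2 that fell.

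Genes of the chromaffin cell did not separate the sets. TH lay at 1191 to 3432 CPM in the high set (median 2643) and at 32.1 to 6484 CPM in the low set (median 1945), a log2 FC of 0.07 (SE 0.73). The sign of this difference turned when single tumors were left out. DBH lay at 4197 to 13960 CPM against 3191 to 22390 CPM (log2 FC -0.45, SE 0.51), and CHGB, a granin of the secretory granule, at 11470 to 78990 CPM against 9337 to 67550 CPM (log2 FC 0.57, SE 0.61). The ranges also overlapped for DDC, the vesicular transporter SLC18A1 and the synaptic vesicle protein SYP, which had log2 FCs of -0.38 (SE 0.48), 0.60 (SE 0.65) and 0.17 (SE 0.27). Of 37 catecholamine and chromaffin genes tested, 26 were higher and 11 lower, none past the threshold by edgeR, with a median log2 FC of 0.17, and 0.11 to 0.33 without single tumors in turn. The most abundant per length, the enkephalin precursor PENK, lay at 153.5 to 63320 CPM in the high set and 716 to 63000 CPM in the low set.

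Lists of connective tissue and blood cell genes lay on the lower side, and their medians lay nearer to 0 without tumor 11. Of 24 capsule and fibroblast genes tested, 22 were lower and 2 higher in the high set, with a median log2 FC of -1.86, and without tumor 11 the median was -0.40. The summed level of these genes was 44100 CPM in tumor 11 and 4309 to 9717 CPM in the other tumors; the most abundant per length, the pericyte gene RGS5, had a log2 FC of 0.12 (SE 0.49). Of 16 macrophage and neutrophil genes, 15 were lower, with a median of -1.28, or -0.23 without tumor 11. Their summed level was 4008 CPM in tumor 11 and 509.6 to 2814 CPM in the others, and the most abundant per length was S100A8 (log2 FC 0.54, SE 0.57). Of 12 lymphocyte genes, 10 were lower, with a median of -1.13, or -0.71 without it; CD79A was the most abundant per length (log2 FC -0.27, SE 0.31). The 3 erythroid genes tested were all lower (median -2.16, or -0.46 without it), led by ALAS2 with 46.4 CPM in tumor 11. None of these genes was past the threshold by edgeR.

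Among the other lists, none had a gene past the threshold between the sets by edgeR. Of 18 endothelium genes, 13 were lower (median log2 FC -0.35, and -0.54 to -0.11 without single tumors in turn; PLVAP, the most abundant per length, -0.21, SE 0.30). Of 10 Schwann and sustentacular genes, 9 were lower (median -0.76, and -1.01 to -0.42 without single tumors in turn; L1CAM -0.09, SE 0.39), and the median was 0.09 between the 4 highest and 4 lowest tumors. Of 7 adipocyte genes, 6 were lower (median -1.16, or -0.27 without tumor 6 and -0.67 with a filter of 1 CPM). PPARG, the most abundant of them per length, had a log2 FC of 0.23 (SE 0.34). Of 5 hepatocyte genes, 4 were lower (median -1.39, or -0.32 without tumor 11; SERPINA1 -2.46, SE 1.09, or -0.33 without it), while the apolipoprotein gene APOB rose with CYP11A1 on the continuous scale (slope 0.68, SE 0.11), though not past the threshold without tumor 7 (0.53, SE 0.11). Of 6 kidney tubule genes, 3 were higher and 3 lower (median 0.15, or -0.21 without tumor 10 and 0.75 with a filter of 1 CPM; AQP1 -0.47, SE 0.50); LRP2, which was under the floor of 3 counts in tumor 7, rose on the continuous scale (slope 0.76, SE 0.12), but was not past the threshold without that tumor (0.70, SE 0.14). LRP2 was also not past the threshold without tumor 10 (slope 0.64, SE 0.17). FGA and UMOD, defining genes of hepatocytes and of the kidney tubule, had no count in these tumors.

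Of 31 mitosis and replication genes, 25 were lower and 6 higher (median log2 FC -0.30, and -0.52 to -0.16 without single tumors in turn; MCM6 0.11, SE 0.43). Of 18 glucocorticoid response genes, 12 were lower (median -0.07, or 0.34 without tumor 11, -0.30 without tumor 4 and -0.39 between the 4 highest and 4 lowest; NFKBIA 0.01, SE 0.35). Of 35 cholesterol genes, 24 were higher (median 0.25, or 0.15 without tumor 10), although the most abundant per length, APOE, had a log2 FC of -1.12 (SE 0.53, or -0.56 without tumor 11) and stood at 2496 CPM in tumor 11. Of 24 TCA cycle and respiratory chain genes, 20 were higher (median 0.17, or 0.10 without tumor 10; ATP5F1B 0.21, SE 0.18, or 0.12 without it), and of 13 mitochondrially encoded genes, 10 were higher (median 0.17; MT-ATP8 0.25, SE 0.36). The sign of the mitochondrially encoded median did not hold: it was -0.17 between the 4 highest and 4 lowest tumors and -0.09 without tumor 2, and it was 0.05 without tumor 11 and 0.40 without tumor 7. Of 15 immediate early and heat shock genes, 9 were higher (median 0.11, or -0.34 between the 4 highest and 4 lowest, and -0.15 to 0.47 without single tumors in turn; HSPB1 0.35, SE 0.46), and of 15 hypoxia targets, 10 were lower (median -0.05, or 0.20 without tumor 11; ADM 0.35, SE 0.52).

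**Figure D3:**
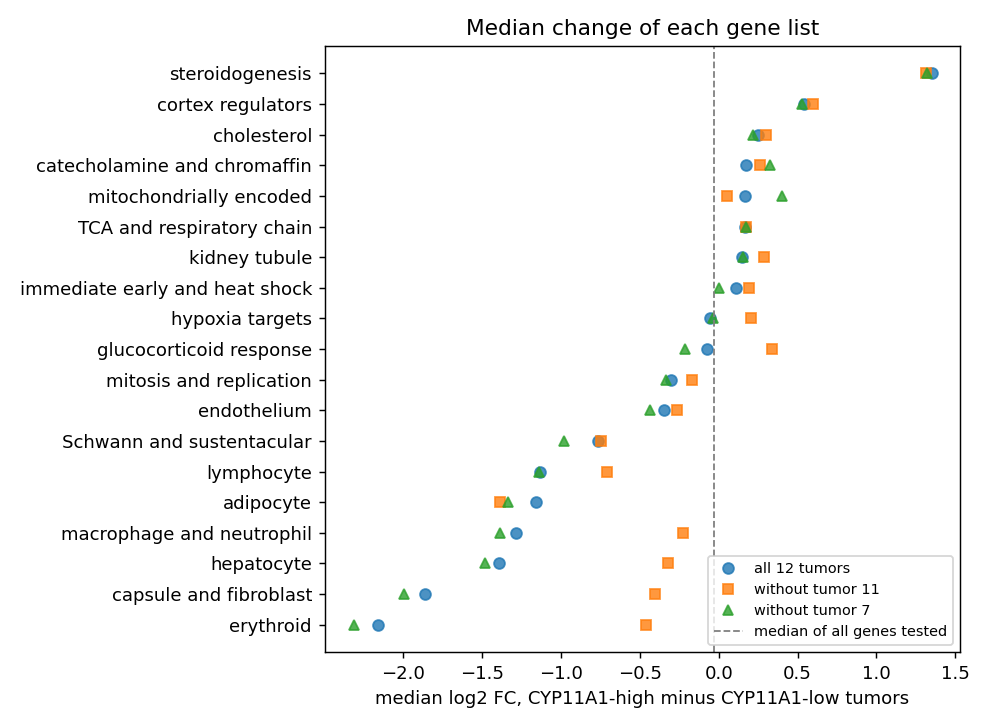
Median log2 FC, CYP11A1-high minus CYP11A1-low tumors, of the tested genes of each list, with all 12 tumors (circles), without tumor 11 (squares) and without tumor 7 (triangles). The dashed line is the median of all genes tested. The capsule and fibroblast list moves from -1.86 to -0.40 without tumor 11, while the steroidogenesis list stays near 1.35 in the settings drawn. Without tumor 10, which is not drawn, the steroidogenesis median was 0.93.

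Group 1 served to place the CYP11A1-low tumors. Between the 7 tumors of group 1 and the 6 CYP11A1-low tumors, edgeR's QL test called 0 of 14335 genes at an adjusted p under 0.05 (0%), with 1660 at an unadjusted p below 0.05. The DESeq2 Wald test gave 340. At an adjusted p below 0.1, 5 genes, named after their values were seen, were found by edgeR: LRRC15, ENPP2, JAK3 and DPYD were lower in group 1, and PTN was higher. Cortical genes were still lower in group 1: 20 of 24 cortex regulators and 10 of 14 steroidogenesis genes were, with median log2 FCs of -0.93 and -1.07, against 0.04 over all genes tested. Genes of some other cells were lower as well: 22 of 24 capsule and fibroblast genes (median -2.43), 15 of 15 macrophage and neutrophil genes (-0.84) and 12 of 14 lymphocyte genes (-1.65). Tumor 11 belongs to the low set, and without it these 3 medians were -0.85, -0.51 and -0.86, and those of the cortex regulators and steroidogenesis genes -0.77 and -0.58. Not all cell lists were lower: the medians were -0.16 for endothelium, 0.04 for Schwann and sustentacular and 0.24 for kidney tubule genes. The short hepatocyte, erythroid and adipocyte lists had medians of -1.68, -0.36 and -0.50. The erythroid median was 0.23 without tumor 11. CYP17A1 had a median of 2.00 CPM in group 1 and 636 CPM in the low set, and CYP21A2 2.66 and 173 CPM, each normalized within this comparison. STAR differed less, with medians of 125 and 404 CPM, and 4 steroidogenesis genes were higher in group 1. The log2 FC of STAR, -0.25 (SE 0.88), was smaller than its medians would give and had a wide SE. The cause was not tested. The authors drew the groups from these samples, so this difference describes that division. All 31 mitosis and replication genes tested were higher in group 1, with a median log2 FC of 1.44.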

How the data were processed

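RNA was sequenced from stranded mRNA libraries, and the authors deposited the exon read count of every Ensembl gene in every sample, not normalized, from reads aligned to CanFam3.1 with STAR. The strand setting of the counting is not given in the sources used here. The table lists 30951 genes, 18239 of them named in it and 4 named from the study's supplement. Counts were filtered by filterByExpr (minimum count 10, minimum total 15), normalized by TMM and tested with the quasi-likelihood F test of edgeR (prior count 0.125; SE from the log2 FC and F), with Benjamini-Hochberg adjustment over all genes tested and a threshold of 0.05. CYP11A1 was left out of every test. NAM slopes used its TMM-normalized level on the log2 scale (prior count 2).

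The genes named are the cortex and chromaffin markers; per direction, up to 12 genes past the threshold, by size of log2 FC, whose ranges did not overlap, outside the steroidogenesis, cortex regulator and cholesterol lists, or, as none passed, the 5 with the smallest p; the most abundant member of each of the 19 lists per length and its members past the threshold; and, for group 1 against the low set, up to 6 genes per direction past the threshold. FDX1, SCARB1, INHA, HSD11B1, AXIN2, GLI1, COL1A1 and CD68 are list members named after their values were seen. Of the genes named by the rule, 3 are not reported here. Members and lists were chosen with earlier results of these data known. Alternatives were other scalings, filters, prior counts, thresholds, tests and memberships, the continuous CYP11A1 measure, each sample left out in turn and a replicate block. The steps were tested on simulated data. Tests ran in DESeq2 1.42.0 and edgeR 4.0.16 with limma 3.58.1 under R 4.3.3, and figures in matplotlib 3.10.9 and pandas 2.3.3 under Python 3.11.15.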

Additional observations from a re-analysis of the deposited data

Results flagged for a closer look

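In 12 of 128 groups of 6 values examined, from the named genes, the list scores and the library totals, the highest or lowest tumor lay far from the others by the gap divided by the range (Dixon's test); chance flags about 1 in 20. Values are log2 TMM-normalized CPM. In the CYP11A1-low set, FNDC4 was low in tumor 5 at 2.01, with a gap of 0.661 of the range. AGMO was high in tumor 11 at 2.24 (0.71), and TNFRSF1B was high in the same tumor at 6.03 (0.647). SLC18A1 was low in tumor 11 at 2.17 (0.764). TH was low in tumor 7 at 5.01 (0.626), and MRAP was low there at -1.60 (0.708). DDC was high in tumor 3 at 9.42 (0.631). RGS5 was low in tumor 9 at 6.95 (0.718), and ATP5F1B was high there at 10.44 (0.809). In the CYP11A1-high set, PENK was low in tumor 10 at 7.26 (0.777), S100A8 was low there at 5.98 (0.811), and L1CAM was low there at 7.46 (0.627).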

How the results depend on the processing

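The count of 0 genes between the CYP11A1-high and CYP11A1-low tumors was the same with the size factors of DESeq2 or library size as scaling, without the steroidogenesis and cortex genes in the library size, with no filter or a filter of 1 CPM, with a prior count of 2, at an adjusted p below 0.1, between the 4 highest and 4 lowest tumors, without the 2 tumors at the division, and without each tumor in turn (0 to 0). Ranking by the other cortex markers put all 12 tumors in the same sets, so its count of 0 was the same test again. The exact Mann-Whitney U-test gave 0 too, where its smallest p of 0.00216 left it little room for calls. The DESeq2 Wald test gave 57 genes, 47 higher and 10 lower, of which 31 were also among the 67 genes, 65 rising and 2 falling, of the continuous CYP11A1 measure; the cause was not tested. For the continuous measure, alternatives chosen after seeing the data gave 18 to 71 genes without each tumor in turn, 67 with TMM-normalized CYP11A1, 52 with the size factors of DESeq2 and 199 with its Wald test. In NAMs, 2703 genes became 1759 between the 5 highest and 5 lowest and 501 to 3688 without each sample in turn. For group 1 against the CYP11A1-low tumors, the DESeq2 Wald test gave 340 genes in place of 0, and leaving out each sample gave 0 to 4: 4 without group 1 tumor 6, 3 without group 2 tumor 7, and 1 each without group 1 tumors 1 and 4. With the sample number as replicate block, over the 4 numbers that occur in both, the count was 0, and 0 without the block in the same 8 samples; same-numbered tumors are different dogs, and their deviations correlated at -0.155 to 0.096. Log2 FCs that changed sign all came from genes not past the threshold, and the cause was not tested. With library size only, TH had -0.0032 and NFKBIA -0.0209. Between the 4 highest and 4 lowest tumors, NFKBIA had -0.35, MCM6 -0.40 and L1CAM 0.0918, and without the 2 tumors at the division NFKBIA had -0.22 and L1CAM 0.0937. Slopes on CYP11A1 had the other sign in PENK (-0.13), NFKBIA (-0.0502), MCM6 (-0.10), S100A8 (-0.10), L1CAM (0.0543), HSPB1 (-0.0147) and ADM (-0.0654). Without each tumor in turn, the log2 FC ranged from -0.19 to 0.69 in TH, -0.28 to 0.22 in NFKBIA, -0.24 to 0.47 in MCM6, -0.12 to 0.31 in RGS5, -0.37 to 0.0358 in PLVAP, -0.26 to 0.0915 in L1CAM, -0.0135 to 0.50 in PPARG and -0.17 to 0.54 in HSPB1. The other genes named by the rule kept their direction in the settings run. Among list medians, 7 values under other settings moved by more than the spread of the list's genes, 3 of them without tumor 11, against 409 that moved less. At these depths, genes at or under 3 counts carry no fold.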
